A study of Bos taurus with 14 samples.

Results

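The low progesterone group consists of cows 1, 6 and 7, the animals of the study whose serum progesterone at collection was low by the study's own threshold. They contribute 6 of the 14 libraries and 3 of the 7 cows, with 1 Control and 1 sPIF explant from each cow. The grouping comes from the study's text, since the sample labels give the animal and the treatment but no hormone level. Cows 2 to 5 form the high progesterone group, with 8 libraries from 4 cows.

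The study asked how sPIF, a synthetic copy of preimplantation factor, a peptide released by viable embryos, alters the RNA of endometrium from animals that were not pregnant. The animals were heifers from an abattoir with ovaries staged as late in the cycle, with a regressing corpus luteum, and the tissue was taken with an 8 mm punch from the intercaruncular endometrium, the glandular lining between the sites where placental attachment forms. sPIF explants received 100 nM sPIF for 24 h and again, in fresh medium, for 6 h, and were collected at 30 h. Control explants went through the same culture without sPIF, in medium that by the study's methods held as much of its solvent, DMSO, although the labels name medium only. No age or breed is given for the animals, and no explant was sampled before culture, so values at the start of culture are not known.

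Progesterone from the corpus luteum prepares the endometrium for an embryo and restrains immune activity in the uterus, and its withdrawal late in the cycle lifts that restraint. NF-kappa B is a family of transcription factors held in the cytoplasm by inhibitor proteins until signals from receptors of the TNF family or from Toll-like receptors free them, after which they switch on cytokines, adhesion molecules and their own inhibitors. Endometrial epithelium, stroma, vessels and resident immune cells all carry this pathway.

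The total count was 15885642 in the Control and 21169927 in the sPIF library of cow 1, 17752182 and 19314005 in those of cow 6, and 17379146 and 25022505 in those of cow 7. The sPIF library was therefore the deeper of the pair in 3 of 3 cows. The 10 most abundant genes took 7.34% of the counts in the Control and 7.65% in the sPIF library of cow 1, 5.55% and 9.60% in cow 6, and 12.5% and 12.3% in cow 7. The libraries of cow 1 were sequenced in lane 1 in 1 run and those of cows 6 and 7 in lane 2 in 2 runs, so that differences between cow 1 and the other cows of the group and differences between lanes cannot be told apart. Of 24616 genes in the table, 13700 had at least 10 counts in all 6 libraries and were tested. The markers of epithelium, stroma, endothelium, muscle and immune cells could not be paired with the identifiers of the table, so the tissue label was not checked against them.

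The animal set most of the variation in this group. On the log2 scale of CPM, which are read counts divided by the normalised size of the library, cow accounted for 79.6% and sPIF for 6.53% of the sum of squares over the genes tested. The share of sPIF did not stand apart from swaps of the treatment within cows (exact permutation test over 8 swaps, two-sided, p = 0.75, where the smallest possible value is 0.25). It was 19.0% without cow 1 and 12.0% without cow 7. For 6 of 6 explants the nearest other explant was the one from the same cow. The distance between the explants of a cow was 42.3 in cow 1, 59.6 in cow 6 and 43.0 in cow 7, against 73.3 to 100.0 for Control and sPIF explants of different cows. The sPIF minus Control difference of a gene had a standard deviation over genes of 0.36 in cow 1, 0.51 in cow 6 and 0.37 in cow 7, so the explants of cow 6 stood furthest apart. Across the 13700 genes, which are not independent replicates, the differences of a pair of cows were almost uncorrelated, with r of -0.0708 for cows 1 and 6, -0.0121 for cows 1 and 7 and 0.0224 for cows 6 and 7.

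No single gene passed the test of edgeR or of limma-voom for an sPIF effect in these 3 pairs. With edgeR's quasi-likelihood test, with cow as a block, 0 of 13700 genes (0%) had an adjusted p under 0.1, and the smallest adjusted p was 0.48. At an unadjusted p under 0.05 there were 519 genes, of which 230 (1.68%) were lower and 289 (2.11%) were higher with sPIF. DESeq2 called 19 genes (0.139%), 13 higher and 6 lower, and limma-voom called 0. Without the block for cow, the number at an unadjusted p under 0.05 was 48, and with all 14 libraries in the fit it was 291. Which direction had more of these genes depended on the samples in the fit and on the block for cow. There were 438 lower and 292 higher without cow 1, and 226 and 412 without cow 6. With all 14 libraries there were 174 and 117, and without the block 30 and 18. Disregarding any test, 1607 genes (11.7%) were lower and 1745 (12.7%) higher with sPIF in 3 of 3 cows, and for 343 genes (2.5%) the 3 Control and the 3 sPIF values did not overlap. A fitted change of over 2-fold was seen for 68 genes, 50 lower and 18 higher. In what follows, a log2 fold change is the paired fit of sPIF against Control with its standard error after the ± sign (n = 3 pairs), and no gene named was called by edgeR. Differences are sPIF minus Control on log2 CPM, always in the order of cows 1, 6 and 7. For a single gene an exact two-sided sign-flip test over 3 pairs cannot go below 0.25.

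The study's list of 102 genes changed by sPIF over the 7 cows, 78 lower and 24 higher, was followed in these 3 cows. The list was chosen on 14 libraries that include these 6, so it is no independent evidence of a direction. Of the list, 99 genes were tested here and 3 were not. The 3 left out were SNORD33, a small nucleolar RNA with 10, 257 and 169 counts in the Control and 7, 72 and 138 in the sPIF explants of cows 1, 6 and 7, FNDC1, with 5, 280 and 30 against 4, 101 and 32 counts, and CRYGS, a lens crystallin gene, with 76, 9 and 110 against 210, 29 and 199 counts. All 76 tested genes of the lower part were fitted lower and all 23 of the higher part were fitted higher. The median log2 fold change was -0.46 for the 76 and 0.58 for the 23, against 0.00101 over all genes tested. The same direction in 3 of 3 cows was found for 77 of 99 genes (77.8%), against 24.5% of all genes. At an unadjusted p under 0.05 were 38 lower and 17 higher genes of the list, against 1.68% and 2.11% of all genes, and edgeR called 0 of the 99. The count of 55 was 66 without cow 1, 32 without cow 6 and 31 without cow 7. It was 49 with all 14 libraries in the fit and 5 without the block. DESeq2 called 3 of the 99, SLC34A2, LCN2 and SERPINA1, against 0.139% of all genes. Control and sPIF values did not overlap for 10 of 99 genes (10.1%), against 2.5% of all genes. Since this is bulk RNA, fewer cells of a type and less RNA per cell cannot be told apart for any of these genes.

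The 3 cows did not take part equally. For the 76 lower genes the median difference was -0.14 in cow 1, -0.81 in cow 6 and -0.43 in cow 7. Cow 6 had the largest difference in 57 of these 76 genes (75%), while over all genes it had the largest in 49%. Cow 1 went against the fitted direction in 20 of the 76 (26.3%), cow 7 in 1 (1.32%) and cow 6 in 0, against 36.5%, 31.8% and 24.8% of all genes in cows 1, 7 and 6. Because the list was chosen partly on these pairs, the shares over all genes are given for scale only. For the 23 higher genes the medians lay closer, at 0.46 in cow 1, 0.69 in cow 6 and 0.49 in cow 7. The exception among the 23 was GNA14, a G protein alpha subunit, with differences of -0.47, 0.80 and 0.78 in cows 1, 6 and 7. The medians over all genes were 0.00876, 0.00518 and -0.0016, close to 0 in each cow. Without cow 6 the median of the 76 was -0.29, and without cow 1 it was -0.65.

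**Figure D1:**
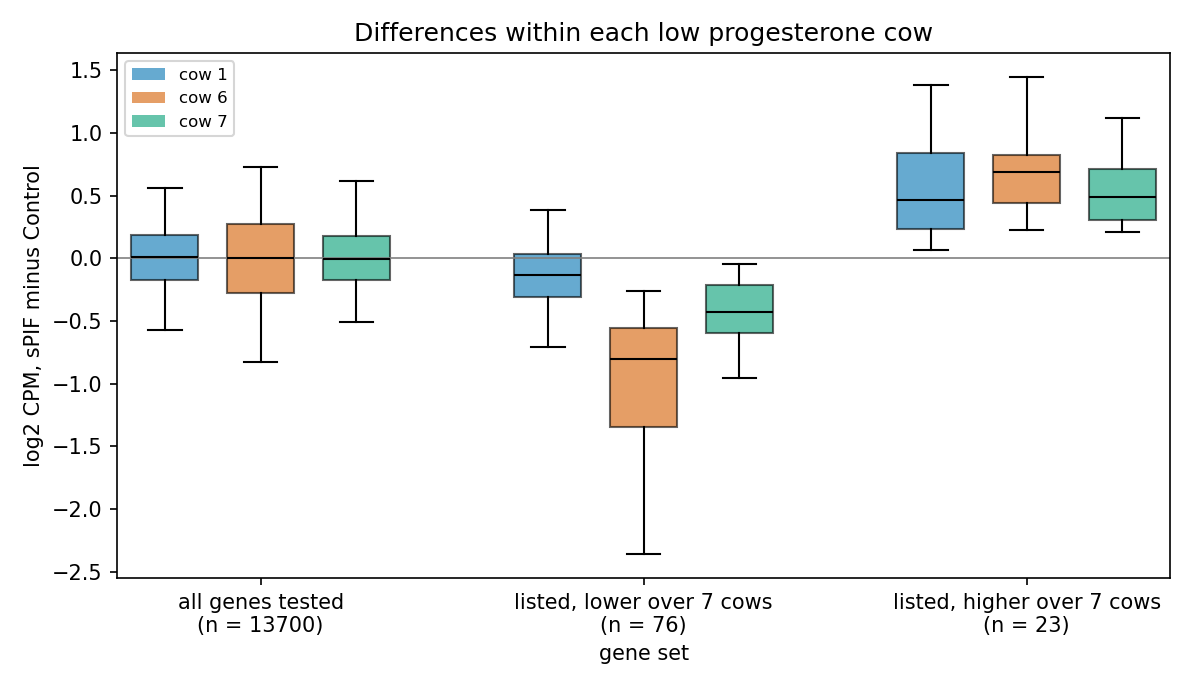
Box plots of the sPIF minus Control difference in log2 CPM within cows 1, 6 and 7, for the 13700 genes tested and for the 76 lower and 23 higher genes of the study's list; boxes span the quartiles, lines mark medians and whiskers reach the 5th and 95th percentiles. The median of the lower genes is -0.14 in cow 1 and -0.81 in cow 6, while the medians of the higher genes lie between 0.46 and 0.69.

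The level in the Control explants also differed between cows for the lower genes. Cow 1 had the lowest of the 3 Control values in 61 of the 76 genes (80.3%), against 38% of all genes, and the highest Control value was in cow 6 in 40 and in cow 7 in 32 of them. The highest of the 3 Control values was 3.02 times the lowest at the median of the 76 genes, and the highest of the 3 sPIF values was 2.11 times the lowest, against 1.64 and 1.58 times over all genes. The range over cows was narrower in the sPIF than in the Control explants for 65 of the 76 (85.5%), against 56% of all genes. For the 23 higher genes it was narrower in 13 (56.5%), and the medians of highest over lowest were 2.23 in Control and 2.15 in sPIF explants. The Control value enters both the level and the difference, so these counts do not show that the level sets the difference. The 76 were also chosen as lower with sPIF on data that include these pairs. That choice favours high Control values, so the shares over all genes are no even comparison. The part of the Control level was not tested.

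Among the subunits and inhibitors of NF-kappa B, 4 of the 14 genes sought could be matched, all from the lower part of the study's list, which fixed their direction. The 4 were lower with sPIF in 3 of 3 cows, against 11.7% of all genes, with a median log2 fold change of -0.45. NFKB1 (ENSBTAG00000020270), which encodes the precursor of the p50 subunit, stood at 125, 164 and 261 CPM in the Control explants of cows 1, 6 and 7 and at 114, 106 and 148 CPM in their sPIF explants. The sPIF explant was below its Control in each pair, with cow 1 nearly level, and the groups overlapped because the sPIF explant of cow 7 lay above the Control of cow 1. Its log2 fold change was -0.53 ± 0.16. NFKBIE (ENSBTAG00000013705), an inhibitor that holds NF-kappa B in the cytoplasm, was at 52.3, 105 and 192 CPM in Control and 46.5, 57.2 and 118 CPM in sPIF explants. Cow 7 was highest in both groups, cow 1 moved least, and the log2 fold change was -0.59 ± 0.16. NFKB2, the precursor of the p52 subunit, had differences of -0.14, -0.39 and -0.56. TNFAIP3, which encodes the A20 enzyme that shuts off signals upstream of NF-kappa B, had differences of -0.046, -0.52 and -0.37. In each of these genes the smallest difference was that of cow 1.

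Of 25 cytokine, adhesion and other target genes of NF-kappa B, 8 could be matched and tested, and 6 of them were lower in 3 of 3 cows, against 11.7% of all genes, with a median of -0.81. The 8 were matched through the lower part of the study's list, which fixed their direction, and the other target genes have no value here. SELP (ENSBTAG00000020755), the P-selectin with which endothelium and platelets catch passing leukocytes, was at 44.2, 311 and 145 CPM in the Control explants of cows 1, 6 and 7 and at 42.0, 32.0 and 46.4 CPM in the sPIF explants. The 3 sPIF explants lay close together, while the Controls ranged from a level like theirs in cow 1 to a far higher one in cow 6. SELP had the lowest log2 fold change of the 99 genes, -1.67 ± 0.55, and it was -0.88 without cow 6 and -2.46 without cow 1. IRF1 (ENSBTAG00000031231), a transcription factor of interferon and TNF responses, had 167, 592 and 611 CPM in Control and 164, 190 and 359 CPM in sPIF explants. Cow 1 was low and level in both, whereas cows 6 and 7 were high in Control and lower with sPIF. The log2 fold change of IRF1 was -0.81 ± 0.29, and it was -0.41 without cow 6.

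VCAM1 (ENSBTAG00000007773), an adhesion molecule of activated endothelium, was measured at 33.3, 140 and 79.9 CPM in Control and at 43.6, 26.7 and 56.4 CPM in sPIF explants. Here cow 1 was higher with sPIF and cows 6 and 7 were lower, with differences of 0.39, -2.39 and -0.50. Its log2 fold change of -0.82 ± 0.48 came mainly from cow 6, and was -0.077 without that cow and -1.44 without cow 1. CX3CL1 (ENSBTAG00000024869), the membrane-bound chemokine fractalkine, was at 69.1, 38.0 and 31.1 CPM in Control and 52.4, 13.4 and 21.3 CPM in sPIF explants. Each pair was lower with sPIF although cow 1 was highest in both groups, and the log2 fold change was -0.81 ± 0.22, or -0.48 without cow 6. TNFAIP6 (ENSBTAG00000007239), a hyaluronan-binding protein induced by TNF, was at 2.22, 25.3 and 40.4 CPM in Control and 1.51, 15.2 and 15.3 CPM in sPIF explants. Cow 1 was far below the other cows in both groups, the groups overlapped, and the log2 fold change was -0.96 ± 0.21, with the smallest unadjusted p among the lower genes of the list. CSF1, the growth factor of macrophages, had differences of -0.048, -1.38 and -0.24. For CD40, a co-stimulatory receptor of the TNF receptor family, they were -0.17, -0.61 and -0.58. CD83, a surface protein of mature dendritic cells, was higher in cow 1 and lower in cows 6 and 7, with 0.32, -1.19 and -0.53.

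Signal transducers follow. MAPK11 (ENSBTAG00000030182), the beta form of the stress kinase p38, was at 2.28, 6.40 and 5.21 CPM in Control and 1.18, 3.22 and 2.96 CPM in sPIF explants. Here cow 1 was lower by as much as the other cows, with differences of -0.89, -0.97 and -0.79. The groups overlapped because the level of cow 1 was low in both, and the log2 fold change was -0.91 ± 0.24. The adaptor TRAF2, which passes signals from TNF receptors, had a log2 fold change of -0.39 ± 0.13 with the same direction in 3 of 3 cows. TRAF1, a related adaptor, had -0.15 ± 0.13, the value closest to 0 among the 76, and its difference in cow 1 was 0.027. Its log2 fold change was -0.034 without cow 6 and -0.24 without cow 1. In the interferon receptor and JAK-STAT list, 3 of 18 genes could be matched, IRF1 and a pair of others. IFNAR2, a chain of the type I interferon receptor and thus of the receptor for interferon tau, the pregnancy signal of ruminants, had differences of -0.031, -0.61 and -0.51. Its 3 Control values, 144, 152 and 157 CPM, were all above the sPIF values of 141, 99.6 and 110 CPM, although cow 1 was level. STAT5A, a transcription factor of cytokine and prolactin signals, had differences of -0.0063, -0.72 and -0.17.

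**Figure D2:**
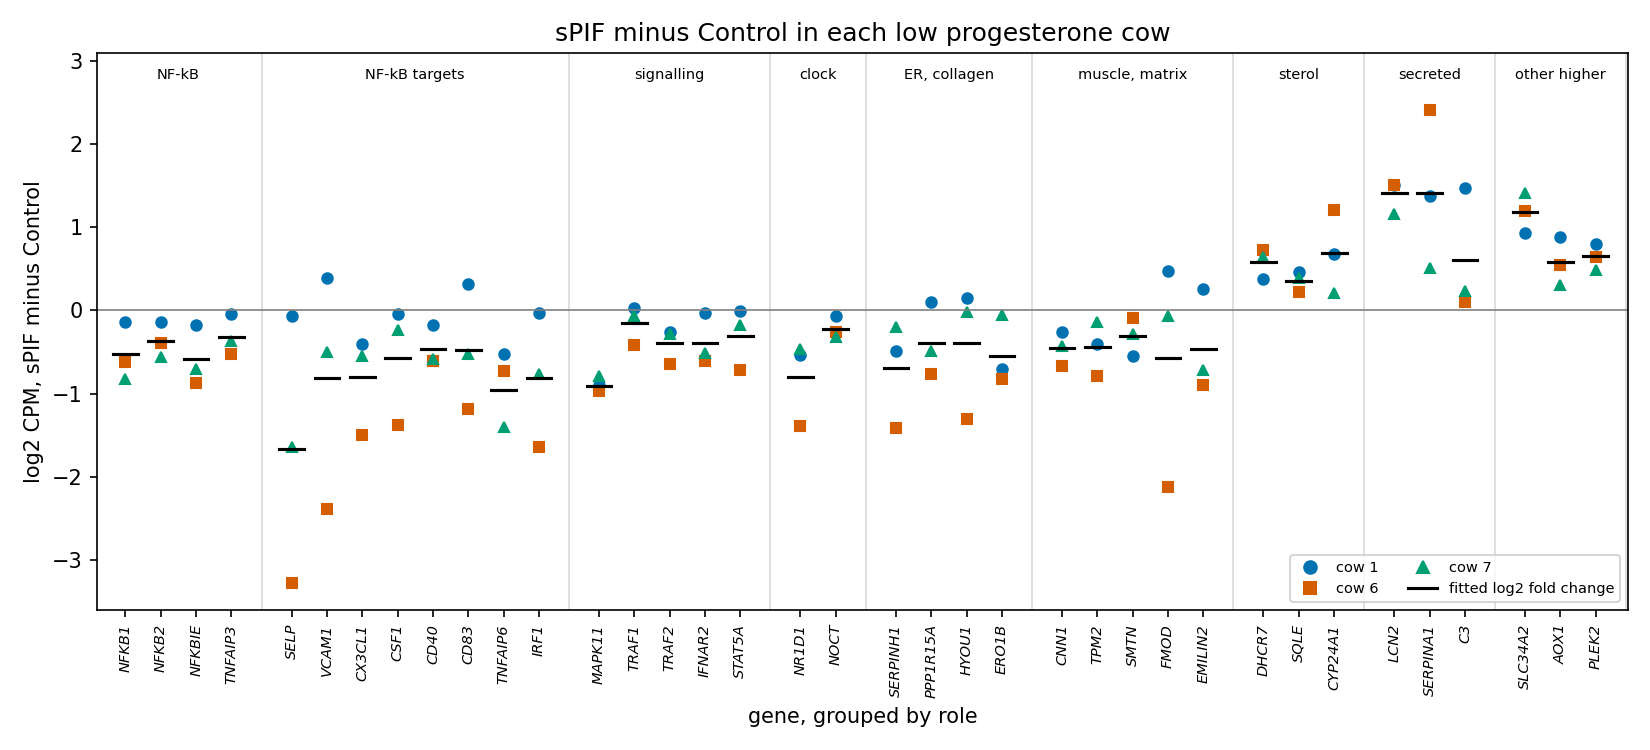
sPIF minus Control difference in log2 CPM of each low progesterone cow for genes of the study's list grouped by role, with 1 marker a cow and the fitted log2 fold change as a black bar. For SELP the differences reach from -0.071 in cow 1 to -3.28 in cow 6, whereas for MAPK11 and LCN2 the 3 cows lie close together.

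The clock list held 2 matched genes of 19. NR1D1 (ENSBTAG00000012178), the nuclear receptor REV-ERB alpha that represses clock and metabolic genes, was at 15.8, 55.3 and 73.0 CPM in Control and 10.9, 21.1 and 53.0 CPM in sPIF explants. Each sPIF explant was below its own Control, but the cows differed so much that the groups overlapped, and the log2 fold change was -0.80 ± 0.20, or -0.51 without cow 6. NOCT, which encodes the rhythmic enzyme nocturnin, had differences of -0.066, -0.26 and -0.32.

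Of 15 heat shock chaperone symbols sought, 3 identifiers could be matched, all from the lower part of the study's list, with a median of -0.77. Their largest differences were in cow 6, as in 75% of the 76 lower genes. SERPINH1 (ENSBTAG00000001027), the collagen chaperone HSP47, was at 391, 1362 and 543 CPM in Control and 279, 513 and 474 CPM in sPIF explants. The high value was the Control of cow 6, the other pairs differed less, and the log2 fold change was -0.69 ± 0.24, or -0.35 without cow 6. DNAJB1, a co-chaperone of HSP70, appears under 2 identifiers, ENSBTAG00000016874 and ENSBTAG00000045858, with log2 fold changes of -0.77 ± 0.34 and -1.38 ± 0.50. The first had differences of -0.18, -1.91 and -0.27, and its log2 fold change was -0.24 without cow 6. The other had differences of 0.22, -2.36 and -1.45, higher in cow 1, and -0.81 without cow 6. How reads were divided between these copies is not known, so both values are uncertain. Of the unfolded protein response list, 3 of 18 genes were matched, with a median of -0.39. ERO1B, an oxidase that drives disulfide formation in secreted proteins, was lower in 3 of 3 cows at -0.71, -0.83 and -0.058. PPP1R15A, which restores protein synthesis after stress, had differences of 0.10, -0.77 and -0.49. HYOU1, a chaperone of the reticulum, was lower mainly in cow 6, with 0.15, -1.30 and -0.022, and its log2 fold change of -0.39 ± 0.28 turned to 0.052 without that cow and was -0.66 without cow 1.

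Of the 14 genes sought in the smooth muscle contraction list, 3 could be matched, all from the lower part of the study's list. The 3 were lower in 3 of 3 cows, against 11.7% of all genes, with a median of -0.44, and none was called by edgeR or DESeq2, so nothing is known of the list as a whole. The muscle layer of the uterus had been cut away from this tissue. CNN1 (ENSBTAG00000011207), the calponin of smooth muscle, was at 25.5, 98.9 and 156 CPM in Control and 21.3, 62.3 and 116 CPM in sPIF explants. The level rested on the animal, lowest in cow 1 and highest in cow 7, and within each pair sPIF was lower, with a log2 fold change of -0.46 ± 0.13. TPM2, a tropomyosin, had differences of -0.40, -0.79 and -0.14, and its 3 Control values lay above its 3 sPIF values. SMTN, or smoothelin, a marker of contractile cells, had -0.55, -0.092 and -0.28, with cow 1 the largest and cow 6 the smallest. The matrix genes FMOD, encoding the collagen-binding fibromodulin, and EMILIN2, an elastic fibre protein, were higher in cow 1 and lower in cows 6 and 7. FMOD had differences of 0.48, -2.13 and -0.069, and its log2 fold change of -0.57 ± 0.49 became 0.19 without cow 6, -1.11 without cow 1 and -0.86 without cow 7. EMILIN2 had differences of 0.26, -0.89 and -0.72.

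Of the lower genes in other roles, 5 are given here. TSPAN5 (ENSBTAG00000012343), a tetraspanin that steers the sheddase ADAM10, was at 25.5, 66.1 and 49.0 CPM in Control and 20.6, 25.6 and 36.2 CPM in sPIF explants. Cow 6 had the highest Control value and the largest difference, and the log2 fold change was -0.71 ± 0.22, or -0.39 without that cow. RGS16, a brake on G protein signals, had 3 Control values above its 3 sPIF values, with differences of -0.27, -0.80 and -0.31. GJC1, a gap junction connexin, also had groups that did not overlap, with -0.27, -1.33 and -0.32. GCNT4, an enzyme that branches O-linked glycans, and CYP26B1, which degrades retinoic acid, were both higher in cow 1 and lower in cows 6 and 7. The differences were 0.57, -1.35 and -0.61 for GCNT4. For CYP26B1 they were 0.34, -1.74 and -0.090, and without cow 6 its log2 fold change of -0.50 ± 0.37 turned to 0.088, while without cow 1 it was -0.89. The study's plasma membrane group has 16 matched genes of 17, all from the study's list, which fixed their direction. Of this group 12 were lower and 1 was higher in 3 of 3 cows, against 11.7% and 12.7% of all genes, with a median of -0.37. Its members not described elsewhere were fitted between -0.81 for LPL, a lipase that frees fatty acids from lipoproteins, and -0.20 for SLC1A5, a glutamine transporter. Between them lay RGS2, ADA, CALCRL, RHOF and RAB8B, at -0.66, -0.43, -0.35, -0.35 and -0.32. Without cow 6 LPL was at -0.37, RGS2 at -0.22, ADA at -0.26, CALCRL at -0.16 and RAB8B at -0.12.

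Among the genes that were higher with sPIF, LCN2 and SERPINA1, which encode secreted proteins, had the highest fitted values of the 23. They are 2 of the 3 genes that could be matched among the 20 sought in the complement and acute phase list, and the 3, all from the higher part of the study's list, had a median of 1.41. LCN2 (ENSBTAG00000014149), a lipocalin that withholds iron from bacteria, was at 5.63, 2.35 and 6.42 CPM in Control and 16.3, 6.89 and 14.5 CPM in sPIF explants. All 3 sPIF values lay above all 3 Control values, and the differences of 1.51, 1.51 and 1.17 were close to each other. The log2 fold change was 1.41 ± 0.19, with an adjusted p of 0.502 by edgeR and 0.000757 by DESeq2, and LCN2 was higher in 3 of 3 cows. SERPINA1 (ENSBTAG00000018843), the inhibitor of neutrophil elastase, was at 26.9, 7.16 and 22.6 CPM in Control and 70.2, 38.6 and 32.4 CPM in sPIF explants. Its groups did not overlap either, but the difference was 2.41 in cow 6 and no more than 0.52 in cow 7. With a log2 fold change of 1.41 ± 0.33, the adjusted p was 0.995 by edgeR and 0.0038 by DESeq2. C3 (ENSBTAG00000017280), the central complement protein, was at 53.7, 20.3 and 40.0 CPM in Control and 149, 21.8 and 46.9 CPM in sPIF explants. Here cow 1 stood out, with a difference of 1.47 against 0.098 in cow 6 and 0.23 in cow 7. The log2 fold change of C3 was 0.61 ± 0.27, and 0.17 without cow 1.

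SLC34A2 (ENSBTAG00000001545), an epithelial transporter that takes up phosphate with sodium, was at 61.4, 17.2 and 19.1 CPM in Control and 118, 39.5 and 50.9 CPM in sPIF explants. Cow 1 was higher than the other cows in both groups, so the groups overlapped, while every pair was higher with sPIF. Its log2 fold change of 1.18 ± 0.14 had the smallest unadjusted p of all 13700 genes, with an adjusted p of 0.48 by edgeR and 4.35e-06 by DESeq2. AOX1 (ENSBTAG00000009725), an aldehyde oxidase, had 394, 231 and 580 CPM in Control and 725, 337 and 720 CPM in sPIF explants. Its difference was largest in cow 1 and smallest in cow 7, and its log2 fold change was 0.58 ± 0.16. PLEK2 (ENSBTAG00000016255), a pleckstrin that binds membrane lipids and acts on the actin skeleton, was at 10.9, 8.42 and 7.93 CPM in Control and 19.1, 13.2 and 11.2 CPM in sPIF explants. The lowest sPIF value lay just above the highest Control value, and the log2 fold change was 0.65 ± 0.17.

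**Figure D3:**
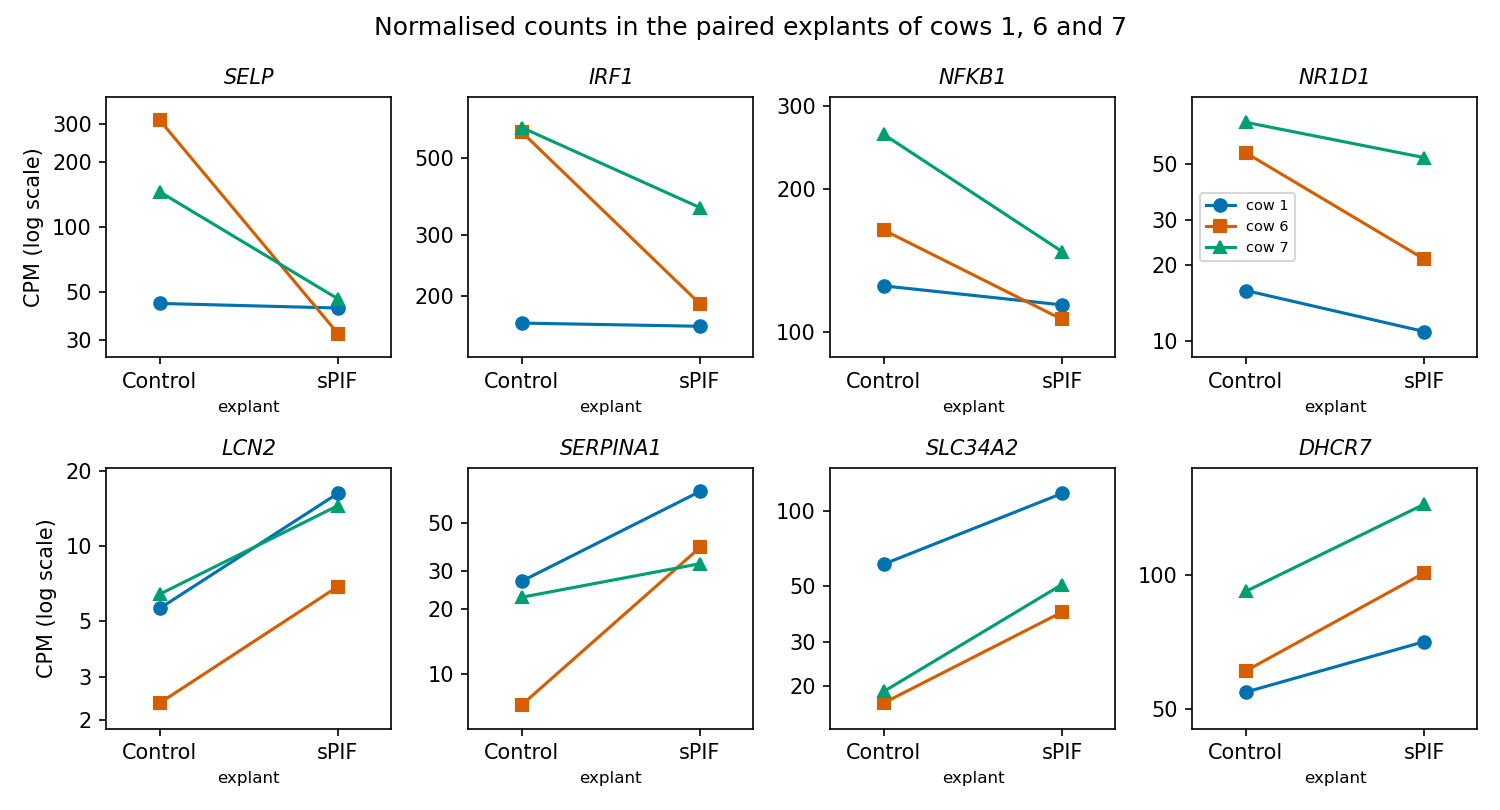
CPM on a log scale in the Control and sPIF explant of cows 1, 6 and 7, joined by a line within each cow, for 8 genes of the study's list. SELP, IRF1, NFKB1 and NR1D1 are lower with sPIF in every pair, with cow 1 nearly level for SELP and IRF1, and LCN2, SERPINA1, SLC34A2 and DHCR7 are higher in every pair.

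Of the 22 genes sought in the cholesterol synthesis list, 2 could be matched, both from the higher part of the study's list, so nothing is known of the list as a whole. The 2 were higher in 3 of 3 cows, against 12.7% of all genes, with a median of 0.47, and neither was called. DHCR7 (ENSBTAG00000016465), which catalyses the last step of cholesterol synthesis, was at 54.6, 60.9 and 91.8 CPM in Control and 70.8, 101 and 144 CPM in sPIF explants. The order of the cows was the same in both groups, which overlapped, and the log2 fold change was 0.58 ± 0.13. SQLE, squalene epoxidase, an early oxygen-dependent step of the same route, had differences of 0.46, 0.22 and 0.39. CYP24A1, which breaks down active vitamin D, had differences of 0.68, 1.21 and 0.21 and a log2 fold change of 0.69 ± 0.24, or 0.45 without cow 6.

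Of the 519 genes at an unadjusted p under 0.05 in these cows, 464 were not on the study's list, with 192 lower and 272 higher. For all genes the balance of lower and higher turned without cow 1. Such a p was found for 3.79% of the 13700 genes tested and for 55.6% of the 99 on the list. Nearly all genes tested are outside the list, so the 464 are no evidence of a further response. Of the 20 genes with the smallest unadjusted p, 10 a direction, that had the same direction in 3 of 3 cows and a mean of at least 5 CPM, 17 were outside the list and carry no symbol. The 3 with a symbol were TNFAIP6, SLC34A2 and LCN2. For 6 of the 20 the Control and sPIF values did not overlap, against 2.5% of all genes, and DESeq2 called 11 of the 20, against 0.139% of all genes. Since the 20 were chosen by their p and by 1 direction in 3 of 3 cows, these counts are a description only. The unnamed gene with the smallest p among the higher genes, ENSBTAG00000022396, was at 955, 91.8 and 82.4 CPM in Control and 2309, 195 and 193 CPM in sPIF explants. Cow 1 stood about an order of magnitude above the other cows in both groups, yet the differences of 1.27, 1.09 and 1.23 were nearly equal, with a log2 fold change of 1.20 ± 0.14. ENSBTAG00000006354 was likewise highest in cow 1, with differences of 1.23, 0.96 and 0.87. Among the lower genes, ENSBTAG00000014614 was at 45.4, 37.0 and 44.1 CPM in Control and 23.0, 25.8 and 24.7 CPM in sPIF explants. All 3 Control values lay well above the sPIF values, and the log2 fold change was -0.78 ± 0.14. For ENSBTAG00000012623 the differences were -0.74, -1.14 and -0.52.

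Whether sPIF acted differently in the low than in the high progesterone cows was tested as the interaction of treatment and progesterone group over all 14 libraries and 13233 genes. The groups were not spread evenly over lanes. Cows 6 and 7 of the low group were in lane 2, as was cow 5 of the high group, and the other cows were in lane 1. Differences between groups and between lanes therefore cannot be fully told apart. edgeR called 0 genes and DESeq2 called 0, limma-voom called 0, and at an unadjusted p under 0.05 edgeR had 187 genes (1.41%), with a smallest adjusted p of 0.9998. The 5 genes with the smallest p have no symbol and are outside the list. Of the 97 genes of the list tested here, 4 had an unadjusted p under 0.05, and in 4 of 4 the fitted effect was nearer to 0 in the low group. PTGDR, a receptor of prostaglandin D2, had a log2 fold change of -1.97 ± 0.41 in the high group, and the low minus high difference was 1.73 ± 0.62. In the low group the gene was at 2.16, 9.68 and 3.51 CPM in Control and 4.39, 4.63 and 2.44 CPM in sPIF explants. Cow 1 was higher with sPIF and cows 6 and 7 were lower, so that the log2 fold change of -0.24 ± 0.41 in the low group turned to 0.23 without cow 6, and was -0.81 without cow 1 and -0.091 without cow 7. EMP3, a membrane protein of the PMP22 family, had -0.90 ± 0.15 in the high group and a difference of 0.65 ± 0.22. For TRAF1 the high group had -0.65 ± 0.12 and the difference was 0.49 ± 0.18. FAT1, an atypical cadherin, had 0.58 ± 0.088 in the high group and a difference of -0.36 ± 0.13. In 30 of the 97 genes the fitted effect was larger in the low group, and in the others it was larger in the high group, but the list was chosen on both groups together and the difference was not called for any gene. Of the 17 genes outside the list with the smallest p in the low group, 16 could be tested for the difference and 12 had the same fitted direction in the high group. The difference had an unadjusted p under 0.05 for 5 of the 16, but these genes were picked for their values in the low group.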

How the data were processed

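The data are RNA-seq read counts per gene. The authors trimmed the reads, aligned them to the UMD 3.1 assembly and counted them per gene, and the deposited values are raw counts, with the runs of a library added. The 6 columns of cows 1, 6 and 7 were taken by sample number, and the row of totals was dropped. Genes needed at least 10 counts in all 6 libraries. Counts were normalized by TMM and fitted in edgeR (4.0.16, under R 4.3.3), with a term for each cow. Its quasi-likelihood p-values were adjusted by Benjamini-Hochberg over all genes tested, with a threshold of 0.1. The standard error is the absolute log2 fold change divided by the square root of the F statistic. CPM are TMM normalized, and differences within a cow use log2 CPM with a prior count of 2. Alternatives were DESeq2 1.42.0, limma-voom (limma 3.58.1), other normalizations, filters and samples in the fit, no block, and each cow left out. The scripts were tested on simulated data.

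The explants of a pair come from the same animal, per the labels and the study's methods. Deviations from the group mean correlated at 0.79, 0.55 and 0.73 within cows 1, 6 and 7, and between -0.59 and -0.0365 across cows. Deviations cancel out over the cows of a group, so positive correlations within cows push those across cows to be negative. The positive values within cows go with the pairing in the labels, and the negative ones add nothing to it. Precision rests on the 3 cows. The value after the ± sign comes from a fit that shares information on spread between genes. It is therefore not the spread of a gene's 3 differences. The standard deviation of these differences was 1.60 for SELP and 0.087 for MAPK11, against standard errors of 0.55 and 0.24. Total counts of 15885642 to 25022505 leave counting error largest for genes near the minimum of 10 counts.

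None of the 24616 identifiers matched the available RefSeq table (0 matches), so symbols come from the study's list alone, after removal of an extra 0 from 27 identifiers, and 13 of its genes have no symbol. Gene lists and cell type markers could be matched only within that list. For the interferon stimulated, immediate early, steroid receptor, cell cycle and hypoxia lists, and for the marker lists, 0 genes were matched. Named genes are those with a symbol among the 5 largest falls and 5 largest rises of the study's list in these cows. Among the 5 falls, ENSBTAG00000045710, at a log2 fold change of -1.37, has no symbol and is not described. The same holds for ENSBTAG00000020564 and ENSBTAG00000038520 among the 5 rises, at 0.97 and 0.75. Also named are up to 10 genes of the list in which the cows disagree, the 10 genes it ranks first and matched members of the gene lists. The genes with the smallest p here, 10 a direction, or for the difference between progesterone groups, were added, with at most 2 unnamed identifiers a direction. The members and lists were chosen with earlier results of these data known.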

Additional observations from a re-analysis of the deposited data

How the results depend on the processing

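The count of genes called was 0 in edgeR under each normalization and filter tried and with each cow left out. With the main genes and pairing it was 0 in limma-voom and 19 in DESeq2. The cause of that difference between the tools was not tested. The count at an unadjusted p under 0.05, 519, was 48 with no replicate block and 291 with all 14 libraries in the fit, and lay between 390 and 730 with a cow left out. Without the block the smallest adjusted p of edgeR was 1, against 0.48 with it, and since there were 0 calls with the block, none could be lost. The share of the sum of squares due to sPIF, 6.53%, lay between 8.49% and 19.0% with a cow left out, where fewer samples enter. Of 59 named genes, 4 turned from lower to higher without cow 6, at log2 fold changes of 0.19 for FMOD, 0.052 for HYOU1, 0.23 for PTGDR and 0.088 for CYP26B1, and were lowest without cow 1, at -1.11, -0.66, -0.81 and -0.89 in that order. DESeq2 called 6 of the 59, against 0.139% of all genes, but some of the 59 were named for their small p in these data. In the other settings the 59 genes kept their fitted direction wherever they were tested. The median of the study's list, -0.39, lay between -0.52 and -0.22 with a cow left out. For the difference between progesterone groups the count called was 0 in every setting tried. Depth limits most the genes near the minimum of 10 counts.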
